A study of Mus musculus with 8 samples.

Results

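Toll-like receptors are membrane proteins of innate immune cells that bind conserved microbial molecules and some molecules released by damaged host cells. The genes described here are the mouse receptors Tlr1 to Tlr9 and Cd14, whose product hands lipopolysaccharide to TLR4. They were chosen by gene symbol, and all 10 were found among the 24391 symbols of the deposited count table. The measurements come from RNA sequencing of atherosclerotic lesions of the mouse brachiocephalic artery, a vessel that leaves the aortic arch. Lesions of 4 mice injected with an antibody against interleukin-1β (IL-1β) were compared with lesions of 4 mice injected with control immunoglobulin G (IgG).

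All mice were C57BL/6 and had been fed a Western diet for 18 weeks. The study's design text calls them wild type in a smooth muscle cell (SMC) lineage tracing line. Antibody dose, injection schedule, sex, age and any further allele are not given in the sources used here. Each library is 1 animal, and animals carry the numbers of the labels. The labels describe the tissue as a mixture of smooth muscle, epithelial, macrophage and other cells.

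The receptors fall into surface and endosomal classes. TLR1, TLR2, TLR4, TLR5 and TLR6 sit mainly at the cell surface, where TLR2 pairs with TLR1 or TLR6 to bind bacterial lipopeptides, TLR4 binds lipopolysaccharide and TLR5 binds flagellin. TLR3, TLR7, TLR8 and TLR9 sit in endosomes and bind nucleic acids. All except TLR3 signal through the adaptor MyD88, the adaptor that IL-1 receptors also use, and in mouse models of atherosclerosis TLR2 and TLR4 are among the most studied members.

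Library totals ranged from 20137336 to 27100415 assigned counts in antibody animals and from 21902802 to 29453014 in IgG animals. The 10 genes together took 0.027% to 0.0379% of counts in antibody animals and 0.0292% to 0.0501% in IgG animals. The markers of the tissue were present in every library. Summed macrophage markers (12 genes) lay between 1680 and 2270 CPM (counts scaled to edgeR's TMM library sizes) in antibody animals and between 1510 and 3140 CPM in IgG animals, and summed smooth muscle markers (5 genes) between 1390 and 3800 CPM in antibody animals and between 2130 and 2820 CPM in IgG animals. The labels also name epithelial cells, whose 5 markers summed to 8.09 to 13 CPM in antibody animals and 10.1 to 35.7 CPM in IgG animals. Krt18 and Cdh1 were the 2 highest of them in every library but IgG animal 1, where Krt8 and Krt5 reached 8.55 and 7.15 CPM, and Epcam was at most 0.364 CPM in antibody animals and 0.89 CPM in IgG animals. Several libraries stood apart. IgG animal 1 had the lowest macrophage sum and the highest epithelial sum (35.7 CPM against 8.09 to 13 CPM in the other libraries), antibody animal 3 the highest adipocyte sum (4570 CPM against 1450 to 2310 CPM), and the thymocyte gene Rag1 reached 38.8 CPM in antibody animal 2 and 46.3 CPM in IgG animal 1 against 7.61 CPM or less elsewhere.

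Tlr1 and Tlr6 are neighbours on chromosome 5 and share part of their coding sequence, which bears on how their reads were counted. In the GENCODE transcripts of GRCm38, 14.8% of the distinct 50-base windows of Tlr1 also occur in Tlr6 and 12.3% of those of Tlr6 in Tlr1. No other pair among the 45 pairs of members shares such a window. The longest identical run is 229 bases and lies inside both coding sequences, from base 1468 to 1696 of the 2388 coding bases of Tlr1 and from base 1507 to 1735 of the 2421 coding bases of Tlr6. Its first 120 bases are shown in lower case, because a read that falls wholly inside cannot be given to one of the genes:
Tlr1 and Tlr6: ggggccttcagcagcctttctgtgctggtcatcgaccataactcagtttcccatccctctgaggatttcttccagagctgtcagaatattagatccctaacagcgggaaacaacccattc
Reads aligned at several places were an unassigned class in the deposited status table, so the counts of Tlr1 and Tlr6 rest on their remaining sequence.

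The RefSeq promoter table (GRCm38.p6, 250 bases before to 50 after each start) held 7 of the 10 genes and not Tlr4, Tlr7 or Cd14. It was searched on both strands for GAGGAA, the core bound by the myeloid factor PU.1, for GGGNNTTCC, a core bound by NF-kB, and for GAAANNGAA, a core of interferon response elements. The last 2 spellings were chosen after a first search with other spellings of these cores. GAGGAA was found for Tlr1, Tlr8 and Tlr9 and in 28.3% of the 32851 promoters in the table. GGGNNTTCC was found for Tlr2 alone of the 7 and in 5.82% of promoters. GAAANNGAA was found for Tlr6 and Tlr8 and in 8.56% of promoters. These shares count single promoters, while a member counts as a gene with a match in any of its promoters. Windows of 30 bases before the start are shown for 5 genes, 5′ to 3′ on the gene's strand, with the match in capitals, so that the elements can be compared:
Tlr1, PU.1 core, chr5:64933564-64933593, minus strand: aattaaatgttgGAGGAAgtaggagcttga
Tlr8, PU.1 core on the opposite strand, chrX:167264389-167264418, minus strand: tataaatgacttTTCCTCtgaattcagttt
Tlr9, PU.1 core, chr9:106222474-106222503, plus strand: ggagagtggaaaGAGGAAggggttgagggg
Tlr2, NF-kB motif, chr3:83841762-83841791, minus strand: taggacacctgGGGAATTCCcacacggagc
Tlr6, interferon response element on the opposite strand, chr5:64959263-64959292, minus strand: tgactattcttTTCTCTTTCactttctgtt
The Tlr2 match overlaps a match on the opposite strand that starts 1 base later, and the Tlr6 match overlaps a second one. A match describes letters in the window and is not a measured binding site.

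All 10 genes were detected in every library, with the lowest single count at 77 for Tlr5 in IgG animal 3. Per exon length (TPM, computed from the counts and the deposited exon lengths), Tlr8 and Tlr4 stood highest, with means over the 8 animals of 54.2 ± 12.8 and 51.6 ± 11.6 TPM (SD, n = 8). Cd14 followed at 49 ± 14 TPM, Tlr7 at 38.9 ± 9.42 TPM and Tlr2 at 29.6 ± 11 TPM. Tlr1 and Tlr3 had 15.2 ± 4.17 and 13.1 ± 2.3 TPM. The lowest were Tlr9 at 5.47 ± 1.16, Tlr6 at 4.96 ± 1.09 and Tlr5 at 3.34 ± 1.28 TPM. Within single animals this order was clear between Cd14 and Tlr7, Tlr7 and Tlr2, Tlr2 and Tlr1, and Tlr3 and Tlr9, where the first gene was higher in 8 of 8 animals. It was not clear between Tlr8 and Tlr4, Tlr1 and Tlr3, or Tlr9 and Tlr6, where the first gene was higher in 4 of 8. Tlr4 exceeded Cd14 in 6 of 8 animals and Tlr6 exceeded Tlr5 in 7 of 8. The TPM of Tlr1 and Tlr6 used their full exon lengths, including the sequence they share. Both may therefore be too low, by an amount not examined, which bears on their places next to Tlr3 and Tlr9.

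**Figure D1:**
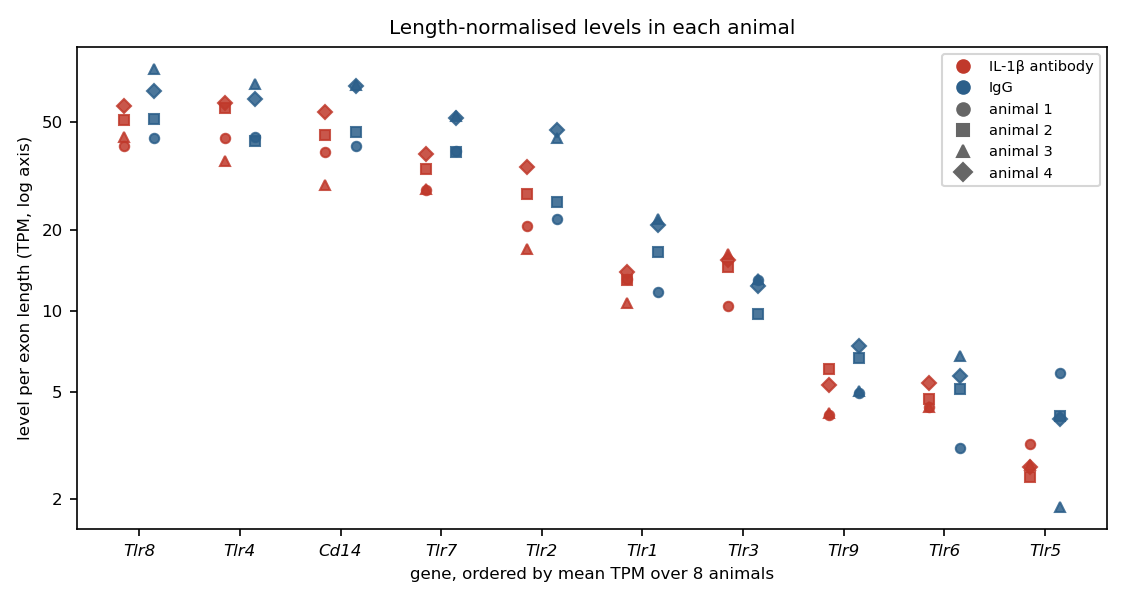
Level of each gene per exon length (TPM, logarithmic vertical axis) in 4 antibody animals (red, left of each pair) and 4 IgG animals (blue, right), with genes ordered by their mean over 8 animals and symbols marking the animal. The mean falls across the genes to 3.34 TPM for Tlr5, against 54.2 TPM for Tlr8, and the highest animal exceeded the lowest by 1.67-fold for Tlr3 to 3.16-fold for Tlr5.

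The groups differ in the injected antibody, so the question here is how transcripts of these receptors stood in lesions of mice given anti-IL-1β. Of the 10 genes, 9 had lower fitted levels in antibody animals and 1, Tlr3, a higher one, where 52.3% of the 15980 genes tested had a log2 fold change below 0. The median log2 fold change was -0.41 over the members and -0.01 over all genes tested. No member passed an adjusted p of 0.05 in edgeR (quasi-likelihood F-test, p-values adjusted over all genes by Benjamini-Hochberg; adjusted p = 0.9997 for each of the 10), and neither did any other gene (0 of 15980, 0%). At an unadjusted p under 0.05 there were 2 members, Tlr7 and Tlr1, both lower, against 2.06% of all genes lower at that level and 3.19% in either direction. DESeq2 gave 2 members unadjusted, where it gave 3.54% of all genes. The limma-voom fit, which weights each sample by its quality, gave 7 members and 17.3% of all genes. After adjustment DESeq2 called 8 genes and limma-voom 2, with no member among them. Single animals moved the count of members at an unadjusted p under 0.05 in edgeR. It was 6 without IgG animal 1, where the share of all genes was 9.5%, and 4 without antibody animal 4, where that share was 3.14%. It was 1, Tlr7, without antibody animal 1, 2 or 3 or IgG animal 4, with shares of 1.93% to 4.89%. For none of the 10 genes were the 4 CPM values of antibody animals separate from the 4 of IgG animals, which they were, with antibody lower, for 1.25% of all genes tested (1.96% in either direction). In whole tissue, fewer cells of a type and less RNA per cell cannot be told apart.

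**Figure D2:**
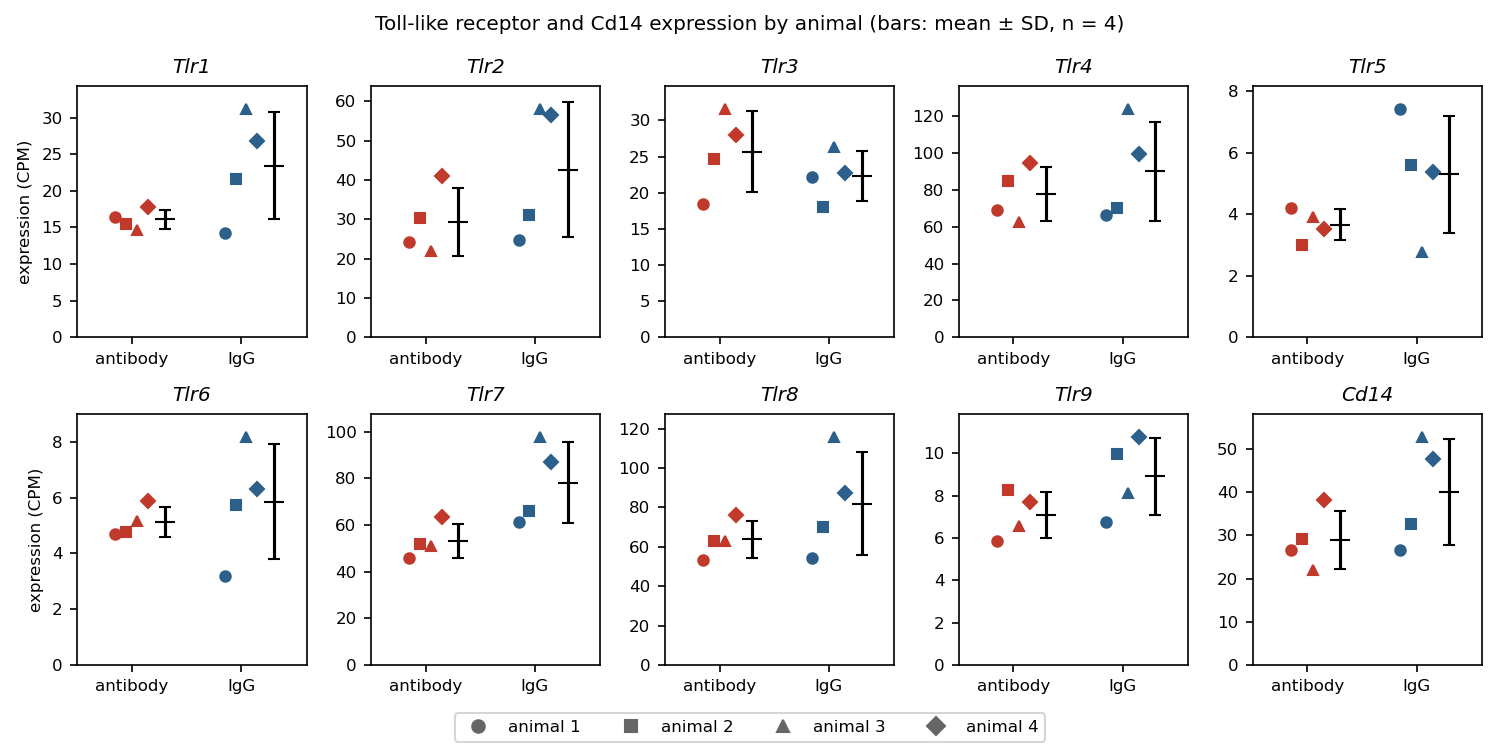
Expression of each gene in CPM (vertical axes from 0), with antibody animals in red on the left and IgG animals in blue on the right of each panel, symbols for the animal number and bars for mean ± SD (n = 4). IgG animals 3 and 4 are the 2 highest of the 8 for Tlr1, Tlr2, Tlr4, Tlr6, Tlr7, Tlr8 and Cd14, while IgG animal 1 lies among the antibody animals for most of these genes.

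Among the surface receptors, Tlr4 (mm9, chromosome 4, 66488845 to 66503830, plus strand) had 69, 84.7, 62.3 and 94.6 CPM in antibody animals 1 to 4, against 66.6, 70.3, 124 and 99.5 CPM in IgG animals 1 to 4. The groups overlapped, and the highest value, in IgG animal 3, was 2-fold the lowest, in antibody animal 3. The fitted log2 fold change of Tlr4, -0.22 ± 0.22 (SE), had a 95% interval of -0.70 to 0.27.

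Cd14 (mm9, chromosome 18, 36884718 to 36886469, minus strand) had 26.6, 29.2, 22.1 and 38.1 CPM in antibody animals, against 26.7, 32.7, 52.9 and 47.7 CPM in IgG animals. As for Tlr4, IgG animals 3 and 4 were the highest, and the other IgG animals lay within the range of the antibody animals. The log2 fold change was -0.47 ± 0.24 (SE, unadjusted p = 0.0824 in edgeR).

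Tlr2 (mm9, chromosome 3, 83640194 to 83645530, minus strand), the shared partner of the lipopeptide receptors, had 24.1, 30.2, 21.9 and 41 CPM in antibody animals, against 24.7, 31, 58.1 and 56.5 CPM in IgG animals. IgG animals 1 and 2 lay within the antibody range and IgG animals 3 and 4 above it. The fitted log2 fold change, -0.54 ± 0.30 (SE), had the widest error of the 10 genes, with a 95% interval of -1.22 to 0.14. Without IgG animal 3 it was -0.35, and without IgG animal 1 it was -0.72.

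Tlr1 (mm9, chromosome 5, 65315919 to 65324797, minus strand) had 16.4, 15.5, 14.7 and 17.8 CPM in antibody animals, against 14.2, 21.6, 31.2 and 26.8 CPM in IgG animals. The antibody animals were tight and lay below 3 of the 4 IgG animals, with IgG animal 1 the lowest of all. The mean was 16.1 ± 1.31 CPM in antibody and 23.5 ± 7.3 CPM in IgG animals (SD, n = 4 each), and the log2 fold change was -0.54 ± 0.21 (SE, unadjusted p = 0.0312, adjusted p = 0.9997, edgeR). The unadjusted p passed 0.05 in 10 of 17 fits. Among the 7 others it lay between 0.0544 and 0.0979 without antibody animal 1, 2 or 3 or without IgG animal 3 or 4. It was 0.0594 with a replicate block and 0.129 with the macrophage score (mean log2 CPM of macrophage markers) as a covariate, both in edgeR.

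Tlr6 (mm9, chromosome 5, 65344334 to 65351273, minus strand) was at a low level, with 4.69, 4.77, 5.16 and 5.87 CPM in antibody animals, against 3.18, 5.72, 8.19 and 6.31 CPM in IgG animals. The IgG animals spread on both sides of the antibody animals. The log2 fold change was -0.19 ± 0.26 (SE), and its sign turned without IgG animal 3 (0.02).

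Tlr5 (mm9, chromosome 1, 184884919 to 184906175, plus strand), the flagellin receptor, had 4.2, 3.01, 3.89 and 3.52 CPM in antibody animals, against 7.42, 5.58, 2.78 and 5.37 CPM in IgG animals. Its order among IgG animals was the reverse of that of Tlr4, with animal 1 highest and animal 3 lowest. The log2 fold change was -0.53 ± 0.28 (SE, unadjusted p = 0.0878, edgeR). IgG animal 1 had the highest epithelial, B cell, T cell and thymocyte marker sums and the lowest macrophage sum. The part of these in the Tlr5 values was not tested. Without IgG animal 1 the log2 fold change was -0.32 (unadjusted p = 0.269, edgeR). Without IgG animal 3 it was -0.75 (unadjusted p = 0.00543, edgeR).

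Among the endosomal receptors, Tlr7 (mm9, chromosome X, 163742858 to 163768503, minus strand), which binds single-stranded RNA, had the smallest p of the 10 genes. It had 46, 52, 51.1 and 63.5 CPM in antibody animals, against 61.4, 66.2, 97.9 and 87 CPM in IgG animals. A single pair of values was out of order, with antibody animal 4 above IgG animal 1. The mean was 53.1 ± 7.38 CPM in antibody and 78.1 ± 17.2 CPM in IgG animals (SD, n = 4 each), and the log2 fold change was -0.56 ± 0.17 (SE, 95% interval -0.94 to -0.18, unadjusted p = 0.00866, adjusted p = 0.9997, edgeR), a level 32% lower. On the TPM scale, which is not TMM-scaled, Tlr7 was the 1 member whose groups did not overlap, as they did not, with antibody lower, for 0.788% of all genes. It had 28.2, 33.5, 28.4 and 38.1 TPM in antibody animals, against 39.2, 38.8, 53 and 51.8 TPM in IgG animals, so that the nearest values were 38.1 and 38.8 TPM. The fold change stayed below 0 and the unadjusted p below 0.05 in all 17 fits, while the adjusted p was 0.123 at its lowest, in limma-voom.

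Tlr8 (mm9, chromosome X, 163680664 to 163701720, minus strand) is the neighbour of Tlr7 and also encodes an endosomal receptor. It had 53.1, 62.9, 63.1 and 76.2 CPM in antibody animals, against 54.5, 70, 116 and 87.4 CPM in IgG animals. The groups overlapped and the difference was smaller than for Tlr7, with a log2 fold change of -0.36 ± 0.22 (SE, unadjusted p = 0.131, edgeR); the difference between these genes was not tested.

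Tlr9 (mm9, chromosome 9, 106124929 to 106129207, plus strand), which binds unmethylated CpG DNA and in mice is also expressed by B cells and plasmacytoid dendritic cells, had 5.86, 8.27, 6.56 and 7.69 CPM in antibody animals, against 6.77, 9.96, 8.15 and 10.8 CPM in IgG animals. The groups overlapped, with a log2 fold change of -0.33 ± 0.19 (SE, unadjusted p = 0.113, edgeR). The 7 B cell markers summed to 4.98, 5.08, 7.13 and 8.14 CPM in antibody animals 1 to 4, against 21, 12.9, 6.27 and 14.9 CPM in IgG animals 1 to 4. The 6 plasmacytoid dendritic cell markers summed to 5.91, 9.64, 6.04 and 7.04 CPM in antibody animals, against 18.8, 6.96, 4.54 and 6.48 CPM in IgG animals. Of the B cell markers 7 of 7 had a log2 fold change below 0, against 52.3% of all genes tested. Of them 4 were lower at an unadjusted p under 0.05 in edgeR, against 2.06% of all genes. No marker of these lists was at 0 in all libraries, and their part in the Tlr9 values was not tested.

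Tlr3 (mm9, chromosome 8, 46481019 to 46495893, minus strand), which binds RNA duplexes and signals through TRIF, was the member with a positive fold change. It had 18.4, 24.7, 31.6 and 28 CPM in antibody animals, against 22.2, 18, 26.3 and 22.7 CPM in IgG animals, and the groups overlapped. The log2 fold change was 0.20 ± 0.18 (SE, 95% interval -0.20 to 0.60). The highest value was in antibody animal 3, the animal with the highest adipocyte marker sum. The part of adipocytes in the Tlr3 values was not tested. Without antibody animal 3 the log2 fold change was 0.09.

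Among Tlr1 to Tlr9, the balance of the surface and endosomal classes did not differ detectably between groups. Tlr13, an endosomal receptor outside the members with 78.5 CPM in antibody and 96.7 CPM in IgG animals (means), was not in the sums. The ratio of summed endosomal to summed surface receptor level, both per exon length, was 0.984, 1.01, 1.32 and 1.01 in antibody animals, against 1.16, 1.14, 1.04 and 0.989 in IgG animals. The mean log2 ratio was 0.10 ± 0.20 in antibody and 0.11 ± 0.11 in IgG animals (SD, n = 4 each), a difference of -0.01 (two-sided exact permutation test over 70 assignments, p = 0.943; the smallest p possible is 0.0286). Library scaling does not enter this ratio. Its highest value, in antibody animal 3, was that of the animal with the highest Tlr3.

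Most of the members followed the macrophage markers from animal to animal, and this was examined after the members' values had been seen. All 12 macrophage markers had log2 fold changes below 0 (median -0.31), with none past an adjusted p of 0.05 in edgeR. The order of the summed markers put IgG animal 3 highest (3140 CPM) and IgG animal 1 lowest (1510 CPM). Cd68, Lgals3, Mertk, Fcer1g, Tyrobp and Trem2 had these extremes, but not every marker did. Cd163 had 64.4 CPM in IgG animal 1 and 38.1 CPM in IgG animal 3. Csf1r, Adgre1 and Mrc1 were lowest in antibody animal 3. The log2 fold change was below 0 for 7 of 7 B cell markers (median -1.06), 6 of 6 T cell markers (median -0.47) and 5 of 5 fibroblast markers (median -0.29), and above 0 for 4 of 5 adipocyte markers (median 0.35). Below 0 were also 3 of 6 conventional dendritic cell, 4 of 5 plasmacytoid dendritic cell and 4 of 6 neutrophil markers tested. For endothelial, thymocyte, smooth muscle and epithelial markers these counts were 3 of 5, 2 of 4, 1 of 5 and 3 of 3. Over all genes tested the share below 0 was 52.3%. Fibroblast markers summed to 710 to 1430 CPM in antibody animals and 924 to 2320 CPM in IgG animals, with IgG animal 3 the highest, as for the macrophage sum. Conventional dendritic cell markers, mostly Itgax, were also highest in IgG animal 3 (548 CPM) and lowest in IgG animal 1 (171 CPM). Neutrophil markers were highest in IgG animals 4 and 3 (49.9 and 41.5 CPM) and lowest in IgG animal 1 (25.7 CPM). This order was therefore not particular to the macrophage markers. The part of these lists in the members' values was not tested. Dividing by the macrophage sum narrowed the spread over the 8 animals for Tlr4, whose coefficient of variation was 8.41% per macrophage marker level and 25.4% in CPM, for Tlr8 (7.15% and 28.4%), for Cd14 (9.9% and 31.7%) and for Tlr1 and Tlr6 (both 11.7%, against 31.6% and 26.5% in CPM). It widened the spread of Tlr5 (52% and 34.9%) and Tlr3 (29.7% and 19.4%) and left that of Tlr9 at 21.1%. How often this division narrows the spread over all genes was not examined.

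On that scale too the values of Tlr7 were lower in antibody animals. Per 1000 CPM of macrophage markers it had 26.1, 28.3, 30.4 and 27.9 CPM in antibody animals, against 40.6, 34.8, 31.1 and 33 CPM in IgG animals, with no overlap. Tlr1 (7.83 to 9.31 CPM in antibody and 9.42 to 11.4 CPM in IgG animals) and Cd14 (13.1 to 16.8 CPM in antibody and 16.8 to 18.1 CPM in IgG animals) also did not overlap, though for Cd14 the lowest IgG value was only 1.004-fold the highest antibody value. Over all genes tested, 0.131% were separate in this direction on this scale and 0.776% in either direction. With the geometric mean of the markers, or without Lgals3, which made up 20.9% to 31% of the sum, 1 member remained separate, Tlr7, against 0.131% and 0.125% of all genes. Tlr4, by contrast, had 37 to 46.2 CPM per 1000 CPM in antibody animals and 36.9 to 44.1 CPM in IgG animals.

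**Figure D3:**
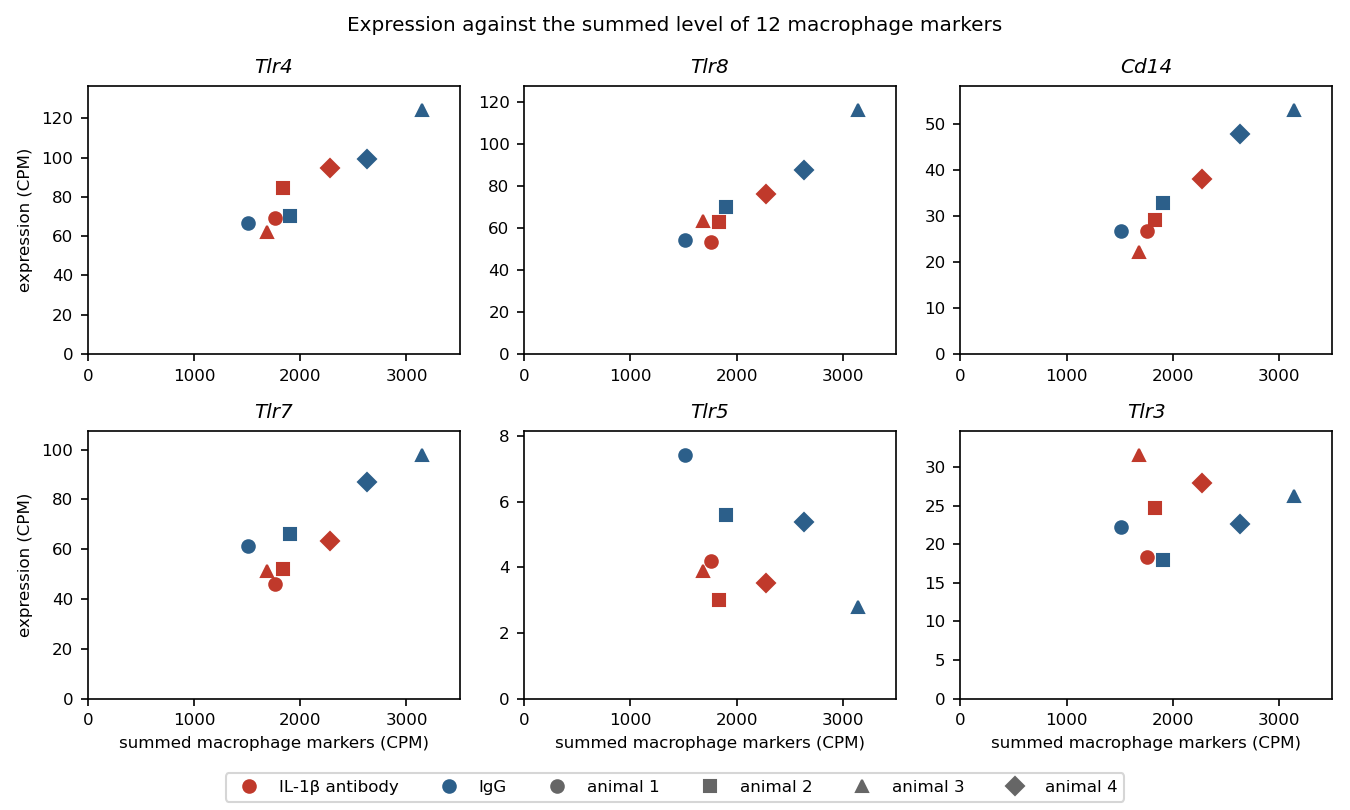
Expression of 6 genes (CPM, vertical axes) against the summed level of 12 macrophage markers (CPM, horizontal axes) in each animal, with antibody in red, IgG in blue and symbols for the animal number. Tlr4, Tlr8 and Cd14 increase along the axis in both groups, the antibody animals of Tlr7 lie below the IgG animals at similar marker levels, and Tlr5 and Tlr3 do not follow the axis.

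The macrophage score was also used as a covariate in edgeR. The members' median log2 fold change was then -0.08, and 7 of 10 were below 0, against 48.8% of all genes. Tlr7 had -0.33 ± 0.10 (SE, unadjusted p = 0.00764) and Tlr5 -0.75 ± 0.23 (unadjusted p = 0.0111), where 3.5% of all genes had an unadjusted p under 0.05, while Tlr2 had -0.06 ± 0.11, Tlr8 -0.03 ± 0.11 and Tlr4 0.09 ± 0.11. No member passed an adjusted p of 0.05 in this fit, and the score is itself measured in the same libraries.

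**Figure D4:**
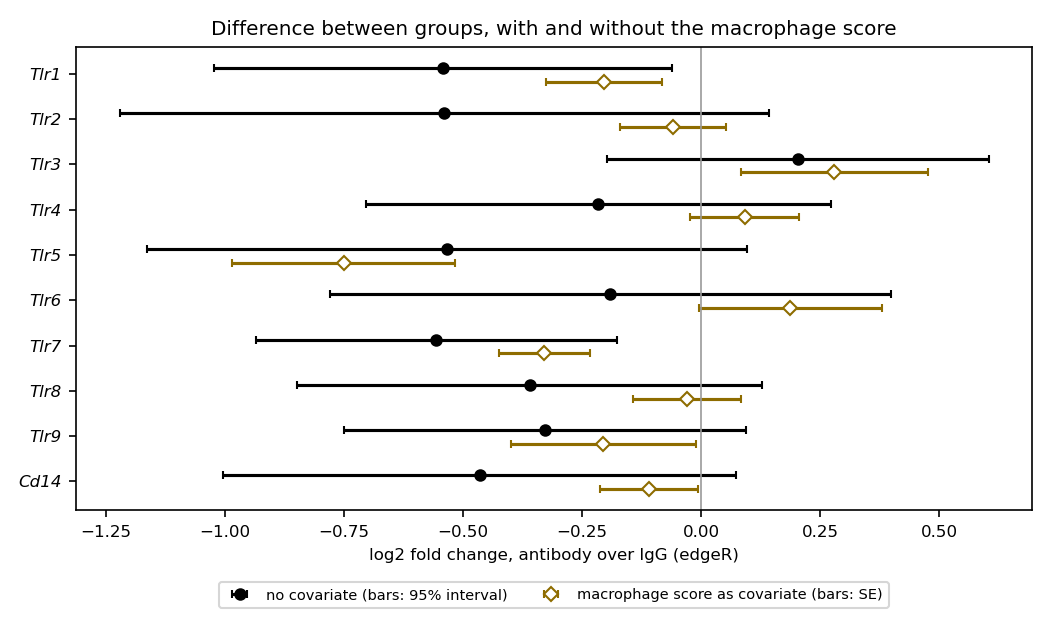
Log2 fold change of antibody over IgG for each gene (horizontal axis) from edgeR, without a covariate (black circles, bars for the 95% interval) and with the macrophage score as a covariate (open diamonds, bars for 1 SE). With the score, Tlr2, Tlr4, Tlr8 and Cd14 lie between -0.11 and 0.09, Tlr7 at -0.33 and Tlr5 at -0.75.

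The genes whose pattern over the 8 animals was most like each member are given as a description, with no p, since they were the best of 11653 candidate genes and share libraries and depth with it. By the Pearson correlation of log2 CPM, Tlr1 was most like Vav1 (0.99) and Ticam2 (0.988), Tlr2 like Fcgr2b (0.99) and Cd14 (0.988), and Cd14 like Plscr1 (0.993) and Tlr2. Tlr4 was most like Timp1 (0.996) and Actb (0.994), Tlr6 like Abcg1 (0.993) and Arl11 (0.99), and Tlr8 like Sat1 (0.989) and Snx5 (0.985). Tlr7 was most like Ptprc (0.977), which encodes the leukocyte antigen CD45, and Ms4a6c (0.976). Tlr3 was most like Surf1 (0.987) and Lsm1 (0.974), Tlr5 like the keratin gene Krt80 (0.987) and Zhx3 (0.956), and Tlr9 like Tbc1d14 (0.936) and H2-M2 (0.928). Among the members themselves, the correlation was highest for Tlr2 with Cd14 and lowest for Tlr5 with Tlr6 (-0.605).

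Other genes of the pathway, 52 in the table in 5 lists and 49 tested, went mostly the same way: 42 had a log2 fold change below 0 (median -0.24), against 52.3% of all genes. None passed an adjusted p of 0.05 in edgeR, DESeq2 or limma-voom, and 3 had an unadjusted p under 0.05 in edgeR, all lower, against 2.06% of all genes. With the macrophage score as a covariate 30 of 49 were below 0, against 48.8% of all genes. The lists were chosen with earlier results of these data known, and the target list shares Il1b and other genes with the IL-1 response.

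The remaining mouse receptors Tlr11, Tlr12 and Tlr13 had log2 fold changes of -0.06 ± 0.27, -0.52 ± 0.39 and -0.30 ± 0.25 (SE). Tlr13, an endosomal sensor of bacterial ribosomal RNA, had 71.4, 76.8, 68.9 and 96.7 CPM in antibody animals, against 60.6, 76.5, 141 and 109 CPM in IgG animals. IgG animals 3 and 4 were the highest and IgG animal 1 the lowest.

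Of 11 tested co-receptors, chaperones and ligand handling genes, 9 were below 0. Lbp, which encodes the lipopolysaccharide binding protein, had 27.4 ± 5.16 CPM in antibody and 37.6 ± 10.5 CPM in IgG animals (SD, n = 4 each), and Unc93b1, whose product carries the endosomal receptors to endosomes, had 117 ± 6.62 CPM in antibody and 143 ± 34.3 CPM in IgG animals. Slc15a4, an endosomal transporter needed for TLR7 and TLR9 signalling, had a log2 fold change of -0.17 ± 0.15 (SE). Cd36, a scavenger receptor that also acts with TLR2 and TLR6 and is abundant in adipocytes, had 1360 ± 320 CPM in antibody and 1100 ± 106 CPM in IgG animals and was highest in antibody animal 3 at 1800 CPM.

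Of 10 adaptors and transcription factors, 8 were below 0. Ticam2, which encodes the adaptor TRAM that links TLR4 to TRIF, had 6.3, 6.69, 5.82 and 7.37 CPM in antibody animals, against 5.82, 8.95, 11.5 and 10.3 CPM in IgG animals. As for Tlr1, the antibody animals lay below 3 of 4 IgG animals, with a log2 fold change of -0.48 ± 0.21 (SE, unadjusted p = 0.0469, adjusted p = 0.9997, edgeR). Irf5, a transcription factor activated through MyD88, had -0.23 ± 0.14, Irf8 -0.24 ± 0.17 and Tirap, the bridge between TLR2 or TLR4 and MyD88, -0.17 ± 0.11.

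Of 10 genes that restrain the receptors, 8 were below 0. Irak3, which encodes the inhibitory kinase IRAK-M, had 23.2, 19.7, 21.7 and 21.4 CPM in antibody animals, against 23.8, 26.3, 23.9 and 27.2 CPM in IgG animals. Its groups did not overlap, as they did not, with antibody lower, for 1.25% of all genes tested. The log2 fold change was -0.24 ± 0.10 (SE, unadjusted p = 0.0408, adjusted p = 0.9997, edgeR). Cd180 and Ly86, whose products form a complex that restrains TLR4, had -0.33 ± 0.18 and -0.38 ± 0.31, and Tnfaip3, which encodes the deubiquitinase A20, -0.26 ± 0.16.

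Of 15 tested target genes, 14 were below 0, with a median log2 fold change of -0.59. Il1b, which encodes the cytokine that the antibody binds, had 4.39, 5.19, 3.85 and 4.57 CPM in antibody animals, against 5.88, 7.52, 9.66 and 14.2 CPM in IgG animals, without overlap, and a log2 fold change of -1.05 ± 0.26 (SE, unadjusted p = 0.00291, adjusted p = 0.9997, edgeR). Of all genes tested, 1.25% had groups separate in this direction. The chemokine genes Ccl5 and Ccl3 had log2 fold changes of -0.66 ± 0.31 and -0.59 ± 0.29, and the costimulatory gene Cd40 -0.43 ± 0.20, all with overlapping groups. Il12a and Marco were too low to test, with at most 9 and 10 counts in a library, and Ifnb1 had no count in any library.

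**Figure D5:**
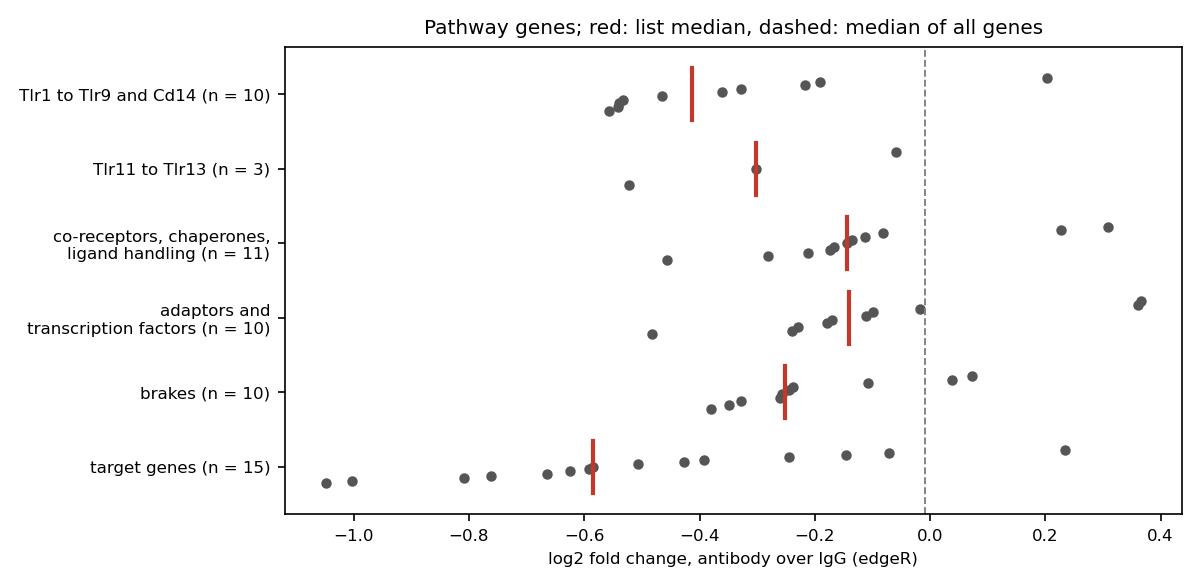
Log2 fold change of antibody over IgG (edgeR, horizontal axis) for each tested gene of the members and of 5 pathway lists, 1 point per gene, with the list median in red and the median of all genes tested, -0.01, as a dashed line. The medians are -0.41 for the members and -0.59 for the target genes, and no gene shown passed an adjusted p of 0.05.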

How the data were processed

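Raw counts per gene symbol for 8 libraries were deposited by the authors in a single table, made with featureCounts 1.4.6-p4 over exons of the UCSC mm9 annotation, per the file headers. No option for strand, read pairs or multiple alignments appears there, so reads of an overlapping antisense transcript would be counted too. The deposited exon length, another value of that table, was used for TPM. CASAVA, STAR 3.0, Subread and DESeq2 are also named, without a role, per the submitters' processing notes. A deposited table of alignment counts by status gave 27.9% to 34.1% assigned in antibody animals and 24.4% to 34.9% in IgG animals. Library totals matched that table, and no libraries agreed within counting noise (chi-square over degrees of freedom at least 27.9 for each pair).

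Genes were kept by edgeR's filterByExpr (minimum count 10, minimum total 15), scaled by TMM and tested with glmQLFit (robust) and glmQLFTest (edgeR 4.0.16, R 4.3.3) without covariates, with Benjamini-Hochberg adjustment over 15980 genes. CPM uses TMM-scaled library sizes. SE came from the fold change and F statistic. Alternatives used DESeq2 1.42.0, limma 3.58.1, other scalings, no filter, a replicate block, a macrophage score (log2 CPM, prior count 2) and fits without single animals. The scripts were tested on simulated data. There the edgeR fit recovered 62.9% of genes changed by a log2 of 1 and 90% of those changed by 2. Smaller changes, such as those fitted for the members, were not simulated. Members and lists were chosen with earlier results of these data known. Named pathway genes are the up to 4 of each list with the smallest p, and the most similar genes are the 2 with the highest correlation among tested genes with a mean of at least 5 CPM, leaving out predicted and clone-named genes. Tasl and Acod1 were not found under those symbols.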

Additional observations from a re-analysis of the deposited data

How the results depend on the processing

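In all 16 alternatives, 0 members and 0 other pathway genes passed an adjusted p of 0.05. Over all genes, DESeq2 called 8 and limma-voom 2, and fits without 1 animal called 0 to 1. The replicate block called 0 genes and gave Tlr1 an unadjusted p of 0.0594; same-numbered animals did not deviate together (correlations -0.344 to 0.293; 2 of 8 libraries correlated best with their own number). Members below 0 numbered 7 with the macrophage score as a covariate, 8 to 9 without 1 animal and 9 otherwise; those at an unadjusted p under 0.05 numbered 1 to 7. Of 160 recomputed member fold changes 3 turned sign: Tlr4 (0.0912) and Tlr6 (0.187) with the macrophage score, and Tlr6 without IgG animal 3 (-0.393 to 0.0159 without 1 animal). With that score Tlr13 (0.0983), Tlr11 (0.127), Slc15a4 (0.0301) and Ly86 (0.0789) also turned; Tlr11 turned in limma-voom (0.012) and without antibody animal 2, IgG animal 2 or IgG animal 3 (-0.287 to 0.0678 without 1 animal). The endosomal to surface ratio differed by -0.107 to 0.0331 without 1 animal, turning sign in 5 such comparisons. Genes at an unadjusted p under 0.05 numbered 509, but 2772 in limma-voom and 310 to 1517 without 1 animal; 35.4% were higher, and 53.1% with total-count scaling. Without IgG animal 1 and antibody animal 3, chosen after seeing the data, 997 genes reached that level and 9 members were below 0 (median -0.45). The cause of these shifts was not tested. Tlr5, Tlr6 and Tlr9 had the lowest counts, 77 to 320 a library.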
